A study of Homo sapiens with 6 samples.

Results

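A set of 10 stress-responsive transcription factors of the basic leucine zipper (bZIP) class was followed in Huh7 cells, a human hepatocellular carcinoma line: ATF3, ATF4, ATF5, ATF6, CREM, CREB3L2, DDIT3, CEBPB, CEBPG and JDP2. They were taken by gene symbol from a table of 37822 genes, and all 10 were present. RNA sequencing had been done on 3 libraries of cells infected with a lentivirus carrying VPS72 (genotype label VPS72 overexpression) and on 3 libraries of cells infected with a Flag-tag control lentivirus (FLAG, genotype label WT). In both groups the virus had been left on the cells for 24 h. Not given in the sources used here were a driving promoter for VPS72 and any cloning or selection of cells. The question was whether a fall of ATF3 with VPS72, the gene the study's title places between VPS72 and mTORC1, was shared by related factors and by those that act upstream of it.

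bZIP proteins bind DNA as pairs, gripping it with a basic stretch and joining through a leucine zipper, and the partner chosen sets the site and the effect. In the integrated stress response, phosphorylation of the initiation factor eIF2 slows translation in general but favours translation of ATF4 and ATF5. ATF4 then pairs with C/EBP proteins and switches on DDIT3 (CHOP), ATF3 and genes of amino acid supply, in part through C/EBP-ATF response elements. ATF6 and CREB3L2 are held in the endoplasmic reticulum membrane and released by cleavage in the Golgi. ATF3 itself is an early response gene that many stresses induce in liver cells and that can repress as well as activate its targets.

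Windows at annotated starts of ATF3 are shown because ATF3 was the member whose mRNA fell. Windows of CEBPG, a C/EBP partner of ATF4, and JDP2, a close relative of ATF3, are added because they hold the same kind of match. A window of CREB3L2 that also holds such a match is not printed. Each window runs from 250 bases before to 50 bases after an annotated start (RefSeq, GRCh38.p14), is printed 5′ to 3′ on the strand of the gene, and has matches to a C/EBP-ATF element in capitals.
ATF3 upstream start, chr1:212565157-212565456, plus strand: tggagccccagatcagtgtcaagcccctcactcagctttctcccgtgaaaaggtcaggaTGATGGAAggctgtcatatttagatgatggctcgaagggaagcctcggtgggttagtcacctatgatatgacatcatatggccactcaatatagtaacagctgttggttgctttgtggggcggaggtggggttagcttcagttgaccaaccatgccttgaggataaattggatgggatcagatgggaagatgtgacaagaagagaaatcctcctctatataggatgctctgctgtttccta
ATF3 downstream start, chr1:212614768-212615067, plus strand: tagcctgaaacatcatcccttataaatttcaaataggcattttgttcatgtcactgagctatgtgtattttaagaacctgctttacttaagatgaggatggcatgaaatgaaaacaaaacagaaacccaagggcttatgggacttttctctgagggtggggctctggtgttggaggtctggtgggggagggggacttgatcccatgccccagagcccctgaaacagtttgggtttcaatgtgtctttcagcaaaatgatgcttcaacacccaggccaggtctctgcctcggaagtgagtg
CEBPG second start, chr19:33373863-33374162, plus strand: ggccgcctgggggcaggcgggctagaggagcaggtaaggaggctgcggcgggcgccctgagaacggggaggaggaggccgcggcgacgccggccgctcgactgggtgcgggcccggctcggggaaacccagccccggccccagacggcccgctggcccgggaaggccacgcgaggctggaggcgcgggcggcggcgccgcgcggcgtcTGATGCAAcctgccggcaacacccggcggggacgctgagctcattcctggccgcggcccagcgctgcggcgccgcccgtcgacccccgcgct
JDP2 second start, chr14:75427772-75428071, plus strand: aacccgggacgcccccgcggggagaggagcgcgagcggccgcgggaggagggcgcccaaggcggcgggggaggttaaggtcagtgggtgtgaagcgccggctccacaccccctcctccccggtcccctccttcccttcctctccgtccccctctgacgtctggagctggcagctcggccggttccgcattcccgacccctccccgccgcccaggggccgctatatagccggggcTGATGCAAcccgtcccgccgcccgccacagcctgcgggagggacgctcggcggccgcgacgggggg

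A total of 3 patterns was searched on both strands in all 26 windows of the 10 genes: the C/EBP-ATF element TGATGNAA (reverse TTNCATCA), the cAMP response element TGACGTCA and the AP-1 site TGANTCA. The C/EBP-ATF pattern was present in 4 windows, of ATF3 at position -191 from the start, CEBPG at -42, JDP2 at -16 and CREB3L2 at 17, and in 3.62% of all 35116 windows of the same length. The cAMP response element was present in 3 windows, of CREM and CREB3L2, and in 1.85% of all windows. The AP-1 pattern was present in 3 windows, of ATF5 and DDIT3, and in 7.71% of all windows. Windows of neighbouring starts overlap, so the cAMP response element matches are 2 distinct sites, as are the AP-1 matches, with 1 site of CREM and 1 of DDIT3 counted in a pair of windows each. No window of a member held more than 1 match. The downstream ATF3 window held none of the 3 patterns, which says only that those letters are not there. Sequence of ATF3 outside its windows was not searched, so a promoter elsewhere in the gene is not covered. Whether either window is a promoter in use in these cells was not tested. The counts analysed below are sums per gene and do not tell the starts of a gene apart.

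The libraries held 23969324 to 29091824 counts in VPS72 and 21345279 to 25352335 counts in FLAG cells. VPS72 itself had 1150, 1173 and 1161 CPM (counts scaled to a common library total, with TMM factors) in VPS72 libraries and 26.7, 21.3 and 23.8 CPM in FLAG libraries, in the direction of the labels. Hepatocyte markers were strongly expressed, as the label of the line says, and rose with VPS72: 7 of 10 passed the test for a difference (edgeR, Benjamini-Hochberg adjusted p under 0.05), where 0.421% of all tested genes did so upward, and their summed level was 21867 to 22679 CPM in VPS72 libraries against 19388 to 20189 CPM in FLAG libraries. The part of this shift in the results below was not tested. Markers of other cell types were low beside these, with summed levels of 10.1 to 10.6 CPM in VPS72 and 10.1 to 11.3 CPM in FLAG libraries for fibroblasts, 13.6 to 14.4 CPM in VPS72 and 10.9 to 12.5 CPM in FLAG libraries for immune cells and 4.13 to 4.97 CPM in VPS72 and 2.84 to 4.55 CPM in FLAG libraries for endothelium. Most of the immune sum was LYZ, at 12.7, 13.8 and 13.2 CPM in VPS72 libraries and 10.5, 12.2 and 10.1 CPM in FLAG libraries, so every VPS72 library was the higher, without passing (edgeR, Benjamini-Hochberg adjusted p = 0.371). COL1A1 averaged 6.21 CPM in VPS72 and 7.06 CPM in FLAG libraries, and PECAM1 averaged 4.43 CPM in VPS72 and 3.19 CPM in FLAG libraries. CD14 averaged 0.523 CPM in VPS72 and 0.535 CPM in FLAG libraries and did not pass (edgeR, Benjamini-Hochberg adjusted p = 0.972). The remaining immune and endothelial markers were too low to be tested. Among them PTPRC and TEK had 0 counts in every VPS72 library and 0 or 1 count in FLAG libraries. CD68 had 6, 4 and 8 counts in VPS72 and 12, 1 and 5 in FLAG libraries. VWF had 1, 1 and 0 counts in VPS72 and 5, 5 and 4 in FLAG libraries. The part of these genes in the results was not tested.

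ATF3 mRNA stood at 16.9, 18.0 and 19.3 CPM in VPS72 libraries, against 31.1, 30.6 and 36.0 CPM in FLAG libraries. The groups were well separated, the highest VPS72 library lying far below the lowest FLAG library. The raw estimated counts were 487, 476 and 456 in VPS72 libraries and 799, 781 and 774 in FLAG libraries. ATF3 fell by 44.6% (95% interval -51.4% to -36.7%), a log2 fold change of -0.85 ± 0.09 (SE, n = 3 per group; edgeR quasi-likelihood test, Benjamini-Hochberg adjusted p = 0.000362). It ranked 3 by p among the 14253 genes that passed the filter on low counts. The fall kept an adjusted p of at most 0.00337 in edgeR when any 1 library was left out. In the test against a 1.5-fold change ATF3 did not pass (edgeR, Benjamini-Hochberg adjusted p = 1). ATF3 was the gene of interest from the outset and its fall was known when the group of factors was drawn up, so it is the starting point here and not an independent finding.

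Of the 10 factors, all of which passed the filter, 1 fell, 0 rose and 9 did not pass. Across all tested genes 0.617% changed, 0.196% lower and 0.421% higher. The median log2 fold change of the 10 was -0.12. Without ATF3 the median log2 fold change of the other 9 was -0.03, against 0.00 for all tested genes, with values from -0.31 for DDIT3 to 0.13 for JDP2. An unadjusted p under 0.05 was reached by 4 of the 10 (ATF3, CEBPG, DDIT3 and CEBPB), where 11.5% of all tested genes reached it. In 3 of the 10 (ATF3, DDIT3 and CEBPG) all VPS72 libraries lay below all FLAG libraries, as they did in 8.47% of tested genes. In 0 of the 10 did all VPS72 libraries lie above, as they did in 8.76% of tested genes. Without ATF3, whose fall was known beforehand, 3 of the other 9 (33.3%) reached that unadjusted p. All VPS72 libraries lay below in 2 of the 9 (22.2%). In bulk RNA, fewer cells that express a gene and less of its RNA per cell cannot be told apart.

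**Figure D1:**
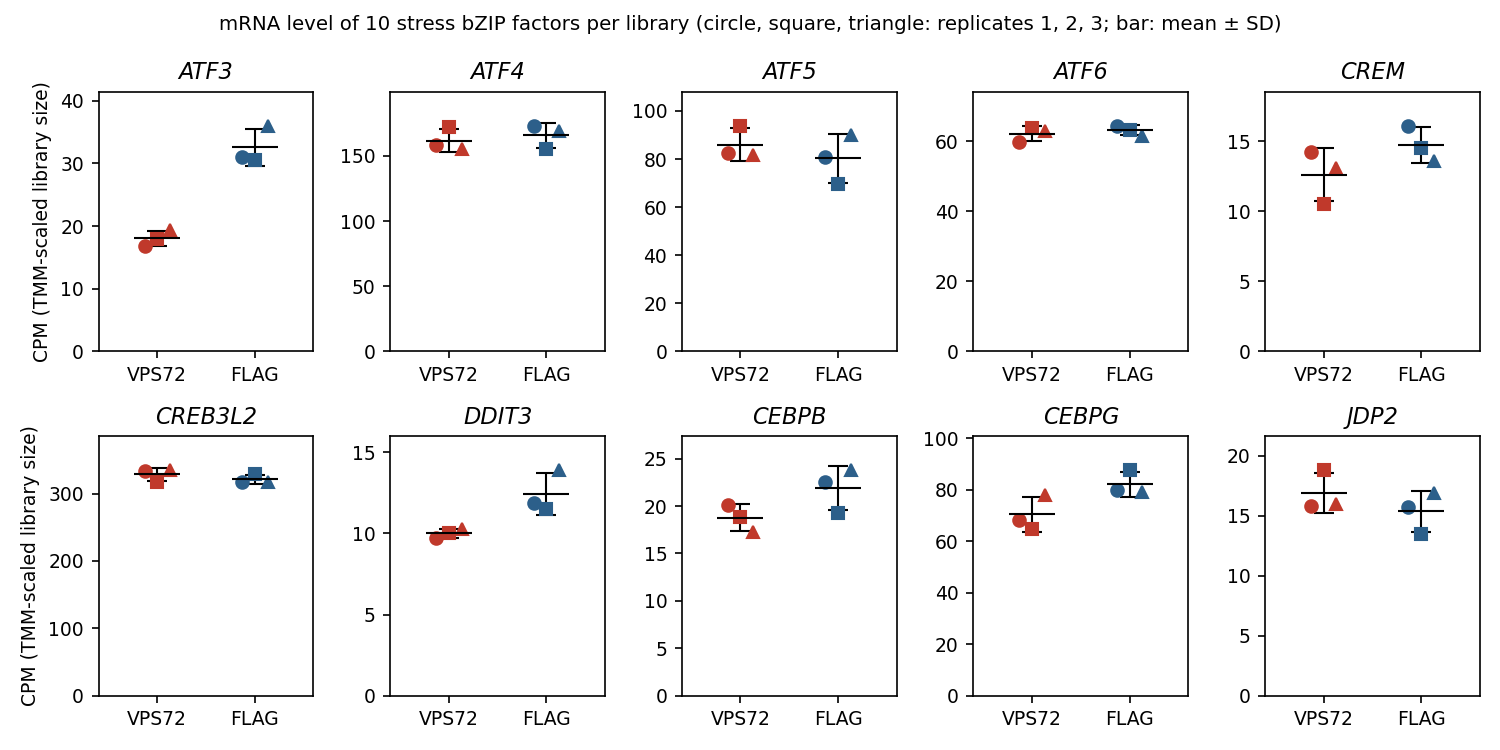
Level of each of the 10 factors in CPM on TMM-scaled library sizes (y axes start at 0) in the 3 VPS72 and 3 FLAG libraries, one panel per gene, with the mean and SD as bars. ATF3 separates clearly (16.9 to 19.3 CPM in VPS72 against 30.6 to 36.0 CPM in FLAG libraries), DDIT3 and CEBPG separate narrowly, and the other 7 overlap.

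The factors that act above ATF3 in the integrated stress response did not pass the test at the mRNA level. ATF4, the factor whose translation rises when eIF2 is phosphorylated, had 158, 172 and 155 CPM in VPS72 libraries, against 173, 155 and 169 CPM in FLAG libraries. The groups overlapped almost completely. Its log2 fold change was -0.03 ± 0.05, and the 95% interval of -9.43% to 5.42% holds no change the size of that in ATF3. ATF5, which is regulated by translation in the same way, had 82.5, 93.8 and 81.8 CPM in VPS72 libraries and 81.0, 69.7 and 90.0 CPM in FLAG libraries (0.10 ± 0.08, interval -4.05% to 20.1%). FLAG replicate 2 was the low library, without which the change was 0.01, and the rest overlapped. Neither passed (edgeR, Benjamini-Hochberg adjusted p = 0.872 for ATF4 and 0.665 for ATF5). In the GENCODE 29 annotation 27.7% of the exon length of ATF5 is shared with other genes, among them IL4I1 and NUP62 on the opposite strand, and ATF4 has 4 pseudogenes, so reads of both could be divided by the counting. These are mRNA levels, and the amount of ATF4 and ATF5 protein, which translation sets in part, was not measured.

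DDIT3, which encodes CHOP, the ATF4-induced factor of prolonged stress, was the member nearest to ATF3 in the size of its change. It had 9.70, 10.0 and 10.3 CPM in VPS72 libraries, against 11.9, 11.5 and 13.9 CPM in FLAG libraries. The groups did not overlap, but the gap between the highest VPS72 and the lowest FLAG library was narrower than the range within FLAG. The log2 fold change was -0.31 ± 0.12 (interval -32.1% to -4.12%), with an unadjusted p of 0.0181 and an adjusted p of 0.301 in edgeR. In the GENCODE 29 annotation 12.8% of the exon length of DDIT3 is shared with other genes, MARS on the opposite strand and AC022506.1 on the same strand. The sources name no strand setting for the counting, so reads of DDIT3 and MARS may not have been told apart.

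The C/EBP factors in the set, CEBPG and CEBPB, had lower means in VPS72 libraries without passing. This was not shared by the other tested C/EBP genes, CEBPA and CEBPD, named after their values were seen. Their log2 fold changes were 0.09 ± 0.06 for CEBPA and 0.24 ± 0.24 for CEBPD, with overlapping groups. Neither passed (edgeR, Benjamini-Hochberg adjusted p = 0.637 for CEBPA and 0.778 for CEBPD). CEBPG, a short C/EBP protein that forms heterodimers with ATF4, had 68.3, 64.9 and 78.0 CPM in VPS72 libraries and 79.7, 87.6 and 79.0 CPM in FLAG libraries. Every VPS72 library was below every FLAG library, though VPS72 replicate 3 came within a small margin of the lowest FLAG value. Its log2 fold change was -0.22 ± 0.06 (interval -22.1% to -5.75%; edgeR, Benjamini-Hochberg adjusted p = 0.149), and it passed only when no filter on low counts was applied (edgeR, adjusted p = 0.0113). CEBPB, a C/EBP activator of acute-phase and stress genes in hepatocytes, had 20.1, 18.9 and 17.3 CPM in VPS72 libraries and 22.5, 19.3 and 23.8 CPM in FLAG libraries. VPS72 replicate 1 lay above FLAG replicate 2, so the groups overlapped (a change of -0.22 ± 0.10 in log2; edgeR, Benjamini-Hochberg adjusted p = 0.423). Of the exon length of CEBPB, 11.8% is shared with the antisense gene CEBPB-AS1.

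Neither membrane-bound factor passed, and both had narrow intervals around zero. ATF6, the sensor that is cut in the Golgi when unfolded proteins build up, had 59.7, 63.9 and 62.9 CPM in VPS72 libraries and 64.4, 63.3 and 61.6 CPM in FLAG libraries. CREB3L2, a relative cleaved in the same way that serves secretory capacity, had 334, 317 and 335 CPM in VPS72 libraries and 318, 329 and 317 CPM in FLAG libraries. In both genes the libraries of the groups were interleaved. The log2 fold change was -0.02 ± 0.05 for ATF6 (interval -8.69% to 6.23%) and 0.03 ± 0.04 for CREB3L2 (interval -3.10% to 7.89%), with Benjamini-Hochberg adjusted p = 0.927 for ATF6 and 0.809 for CREB3L2 in edgeR. The value turned to 0.01 for ATF6 without VPS72 replicate 1, and that of CREB3L2 turned at a value of 0.00 once the trend of change with abundance was removed.

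CREM and JDP2 are the members that can act as repressors at the sites ATF3 binds, CREM through its repressor isoforms at cAMP response elements and JDP2 as an inhibitor of AP-1. CREM had 14.2, 10.5 and 13.1 CPM in VPS72 libraries and 16.1, 14.5 and 13.6 CPM in FLAG libraries, with VPS72 replicate 2 the low library and an overlap between the groups. Its log2 fold change of -0.23 ± 0.12 did not pass (interval -28.9% to 2.70%; edgeR, Benjamini-Hochberg adjusted p = 0.519), and was -0.10 without VPS72 replicate 2. JDP2, a close relative of ATF3 in its bZIP region, had 15.8, 18.8 and 16.0 CPM in VPS72 libraries and 15.7, 13.5 and 16.9 CPM in FLAG libraries. Its point estimate lay on the other side of zero from ATF3, at 0.13 ± 0.11 (interval -6.98% to 29.4%; edgeR, Benjamini-Hochberg adjusted p = 0.721), and the groups overlapped. It was 0.05 without VPS72 replicate 2 and 0.05 without FLAG replicate 2. A gene sum cannot show whether the isoforms of CREM shifted against each other.

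**Figure D2:**
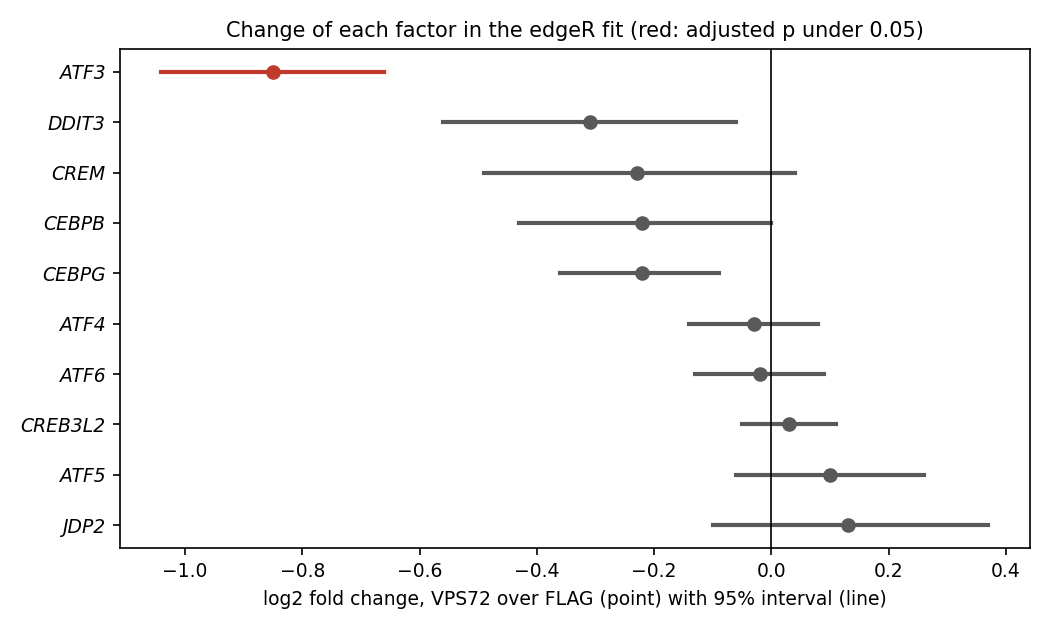
Log2 fold change of each factor, VPS72 over FLAG, as a point with its 95% interval from the edgeR fit as a line. ATF3 at -0.85 (-1.04 to -0.66) is the only one past the threshold, and its interval overlaps that of no other factor, the nearest being DDIT3 (-0.56 to -0.06).

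The fall of ATF3 relative to each of the other factors was then measured inside each library. Scaling between libraries cancels there, except through the 0.5 added to each CPM. The log2 ratio of ATF3 to ATF4 was -3.19, -3.22 and -2.97 in VPS72 libraries and -2.46, -2.32 and -2.21 in FLAG libraries, a difference of -0.80. The ratio to DDIT3 was 0.77, 0.81 and 0.87 in VPS72 libraries and 1.35, 1.38 and 1.35 in FLAG libraries, a difference of -0.54. Within each group the ratio to DDIT3 hardly moved between libraries. FLAG replicate 3, the FLAG library with most ATF3, also had most DDIT3, ATF5, CEBPB and JDP2. For ATF4, ATF6, CREM, CREB3L2 and CEBPG another FLAG library was the highest. The difference was -0.61 against CREM, -0.62 against CEBPB and -0.61 against CEBPG, and it was -0.96 against JDP2, -0.94 against ATF5, -0.86 against CREB3L2 and -0.81 against ATF6. In all 9 ratios every VPS72 library lay below every FLAG library. ATF3 was taken with its fall known and the other factors changed less, so this separation largely restates that fall. The share of all tested genes against which ATF3 would separate likewise was not computed. Each two-sided exact permutation test gave p = 0.1, the smallest that 3 libraries against 3 can give, and 0.1 after Benjamini-Hochberg adjustment over the 9 pairs, so none could pass the threshold of 0.05. All 9 ratios share the ATF3 values and are not independent of each other.

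**Figure D3:**
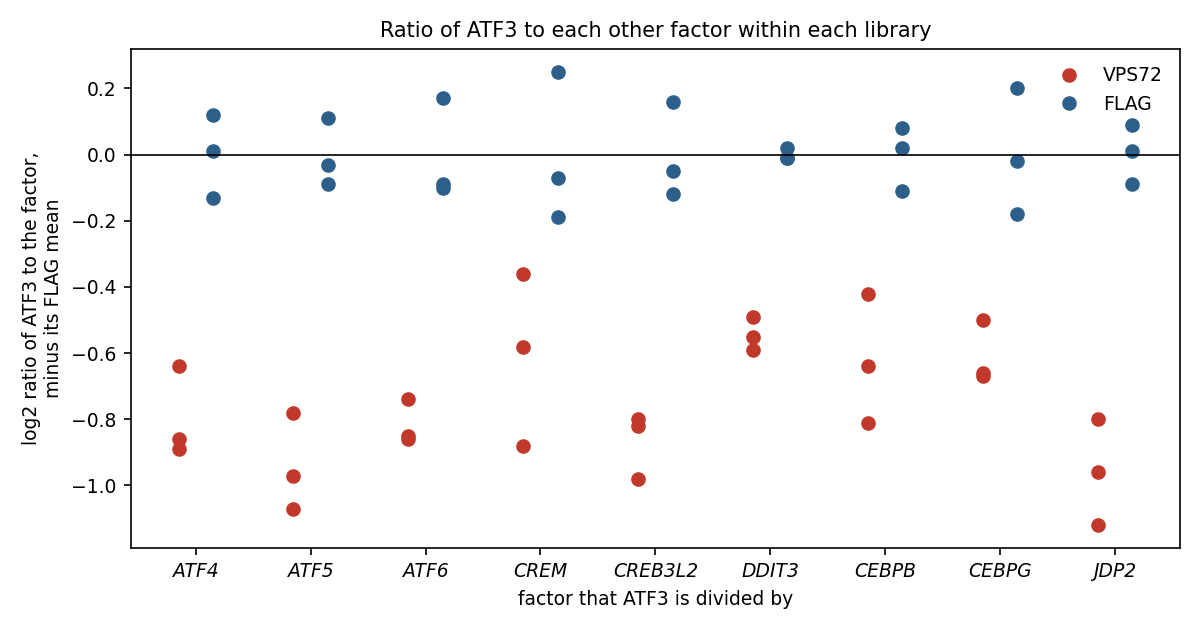
Log2 ratio of ATF3 to each of the other 9 factors within each library, minus the FLAG mean of that ratio, with VPS72 (red, left) and FLAG (blue, right) points per factor. For all 9 factors the VPS72 points lie below the FLAG points, which largely restates the known fall of ATF3. The mean difference is smallest against DDIT3 (-0.54) and widest against JDP2 (-0.96).

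Per length of merged exons, ATF3 stood at 7.12 ± 0.474 CPM per kb in VPS72 libraries and 12.8 ± 1.18 CPM per kb in FLAG libraries (SD, n = 3 per group; lengths from GENCODE 29). ATF4 was the most abundant of the 10 on this scale, at 64.3 ± 3.61 CPM per kb in VPS72 and 65.9 ± 3.76 CPM per kb in FLAG libraries. It was followed in both groups by CREB3L2, ATF5 and CEBPG, with no overlap between neighbours within a group. ATF3 was placed 8 of 10 in VPS72 libraries, level with DDIT3 within their ranges, and 5 of 10 in FLAG libraries, where its range overlapped that of CEBPB. JDP2 and CREM were the lowest and overlapped each other in both groups. With the mean length of coding transcripts instead, CREB3L2 and ATF4 overlapped at the top, ATF3 was placed 5 in VPS72 and 4 in FLAG libraries, and ATF6 and JDP2 were lowest, so the order depends on which transcripts the cells use.

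Of 42 other bZIP genes 38 were tested in edgeR, with 0 past the threshold, against 0.617% of all tested genes. At an unadjusted p under 0.05 there were 6 (15.8%), against 11.5% of all tested genes. With limma-voom 0 passed, while FOSL2 passed with DESeq2 without its independent filter (Benjamini-Hochberg adjusted p = 0.0186) and in edgeR with library size only (adjusted p = 0.0416). With no filter on low counts 3 AP-1 genes passed in edgeR: JUNB (Benjamini-Hochberg adjusted p = 0.000227, named after its values were seen), FOSL2 (adjusted p = 0.0107) and JUN (adjusted p = 0.0286). Without FLAG replicate 2, JUNB (adjusted p = 0.0174 in edgeR) and FOSL2 (adjusted p = 0.0483) passed. In the filtered fit the 38 had a median log2 fold change of -0.06. The change was negative in 30 of them, as in 7298 of the 14253 tested genes. In 7 (18.4%, against 8.47% of all tested genes) all VPS72 libraries lay below all FLAG libraries, and in 3 (7.89%, against 8.76%) above. Among 15 tested genes of the ATF, CREB and C/EBP families and XBP1, the median was -0.02 and 0 passed. XBP1, the spliced effector of the IRE1 branch, was at 276 ± 4.63 CPM in VPS72 and 282 ± 3.72 CPM in FLAG libraries. ATF2, a stress-kinase target, was at 170 ± 5.31 and CREB5 at 109 ± 4.24 CPM in VPS72 libraries, against 169 ± 3.10 and 112 ± 3.35 CPM in FLAG libraries.

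The AP-1 genes had the lowest median of the 3 other bZIP groups. All 9 tested members had a negative log2 fold change, as had 7298 of the 14253 tested genes, and their median was -0.23. At an unadjusted p under 0.05 there were 4 of the 9 (44.4%, against 11.5% of all tested genes). In 3 (FOSL1, FOSL2 and BATF3; 33.3%, against 8.47%) all VPS72 libraries lay below all FLAG libraries. FOSL2, a FOS-type partner of JUN, had 39.5, 44.1 and 42.0 CPM in VPS72 libraries and 52.5, 48.2 and 51.6 CPM in FLAG libraries (a change of -0.28 ± 0.06 in log2; edgeR, Benjamini-Hochberg adjusted p = 0.0595). JUN, the usual AP-1 partner of ATF3, was at -0.23 ± 0.10 and JUND at -0.05 ± 0.09. The AP-1 median ranged from -0.31 without FLAG replicate 2 to -0.14 without VPS72 replicate 1. JUN likewise ranged from -0.34 without FLAG replicate 2 to -0.11 without VPS72 replicate 1. JUND turned to 0.01 without VPS72 replicate 1 and to 0.04 without FLAG replicate 1. Of 14 tested MAF, NRF, BACH and PAR-type genes 0 passed, with a median of -0.10 and a negative log2 fold change in 12. In 4 (MAFF, MAFG, BACH2 and NFIL3; 28.6%, against 8.47%) all VPS72 libraries lay below all FLAG libraries, and in 1 (7.14%, against 8.76%) above. At an unadjusted p under 0.05 there were 2 (14.3%, against 11.5%). NFE2L2, which encodes the antioxidant regulator NRF2, was at -0.04 ± 0.04, its competitor BACH1 at -0.10 ± 0.05 and NFE2L1 at 0.03 ± 0.05.

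Among 18 sensors, kinases and other regulators upstream of the stress factors, 1 fell (against 0.196% of all tested genes), 0 rose and 17 did not pass, with a median log2 fold change of -0.05. At an unadjusted p under 0.05 there were 4 (22.2%, against 11.5% of all tested genes). In 4 (22.2%, against 8.47%) all VPS72 libraries lay below all FLAG libraries, and in 1 (5.56%, against 8.76%) above. The one that fell was PPP1R15A, which encodes GADD34, the stress-induced subunit that directs a phosphatase to eIF2. It had 105, 115 and 117 CPM in VPS72 libraries, against 139, 137 and 136 CPM in FLAG libraries. The groups were separate, and the log2 fold change was -0.29 ± 0.05 (edgeR, Benjamini-Hochberg adjusted p = 0.00868). The call was lost in edgeR without VPS72 replicate 1 (adjusted p = 0.059) and without FLAG replicate 1 (adjusted p = 0.088). PPP1R15B, the constitutive counterpart, was at 161 ± 6.43 CPM in VPS72 and 159 ± 6.95 CPM in FLAG libraries and did not pass. Of the eIF2 kinases, EIF2AK1 was at 0.06 ± 0.04, EIF2AK3 (PERK) at -0.11 ± 0.08 and EIF2AK4 (GCN2) at -0.11 ± 0.06, the last pair named after their values were seen. SMAD3, a carrier of TGF-beta signals to ATF3, was at -0.09 ± 0.04.

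Among the target lists, SLC7A11 (ATF4 and CHOP) and PPARGC1A (cAMP and CREB) passed the test. Of 25 tested targets of ATF4 and CHOP, 1 fell (against 0.196% of all tested genes), 0 rose and 24 did not pass, with a median log2 fold change of -0.07. At an unadjusted p under 0.05 there were 5, all lower (20%, against 11.5% of all tested genes). Beside SLC7A11 and CTH these were SESN2 (-0.25 ± 0.07), GDF15 (-0.44 ± 0.13) and SLC3A2 (-0.21 ± 0.07), named after their values were seen. In 4 (16%, against 8.47%) all VPS72 libraries lay below all FLAG libraries, and in 1 (4%, against 8.76%) above. SLC7A11, the cystine carrier, had 42.0, 43.5 and 44.8 CPM in VPS72 libraries and 60.2, 61.1 and 60.2 CPM in FLAG libraries (-0.48 ± 0.05; edgeR, Benjamini-Hochberg adjusted p = 0.000542). The most abundant other targets were close to level: the alanyl-tRNA synthetase gene AARS1 at -0.05 ± 0.04, the asparaginyl-tRNA synthetase gene NARS1 at 0.06 ± 0.04 and the amino acid exchanger SLC7A5 at 0.01 ± 0.05. CTH, which makes cysteine from cystathionine and was named after its values were seen, had the next smallest adjusted p of the list, with a log2 fold change of -0.44 ± 0.10 (edgeR, Benjamini-Hochberg adjusted p = 0.0616). CTH passed with library size only (edgeR, adjusted p = 0.0483), with no filter (edgeR, 0.0224) and with DESeq2 without its independent filter (0.0207), and its adjusted p was up to 0.186 in leave-outs. Asparagine synthetase, ASNS, a standard ATF4 target, was barely expressed at 1.20 CPM in VPS72 and 1.47 CPM in FLAG libraries, and was also named after its values were seen.

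Of 19 targets of ATF6 and XBP1, 0 passed in edgeR, in limma-voom or in DESeq2 without its independent filter, 4 (21.1%, against 11.5% of all tested genes) had an unadjusted p under 0.05 in edgeR, and the median log2 fold change was 0.06. In 6 of the 19 (31.6%, against 8.76% of all tested genes) all VPS72 libraries lay above all FLAG libraries, and in 0 (against 8.47%) did they lie below. The median was 0.03 with library size only and 0.03 with the abundance trend removed. The chaperone HSP90B1 was at 839 ± 13.6 CPM in VPS72 and 791 ± 14.8 CPM in FLAG libraries, calreticulin (CALR) at 815 ± 14.1 CPM in VPS72 and 773 ± 20.6 CPM in FLAG libraries, and HSPA5 (BiP) at 582 ± 6.80 CPM in VPS72 and 561 ± 12.9 CPM in FLAG libraries. Of 13 tested cAMP and CREB targets and coactivators, 1 fell (again against 0.196%), 0 rose and 12 did not pass, with a median of -0.09. At an unadjusted p under 0.05 there were 3 of the 13 (23.1%, against 11.5%). In 3 (23.1%, against 8.47%) all VPS72 libraries lay below all FLAG libraries, and in 0 (against 8.76%) above. PPARGC1A, the coactivator of gluconeogenesis and mitochondrial genes, had 21.6, 20.4 and 22.6 CPM in VPS72 libraries and 28.9, 30.6 and 25.8 CPM in FLAG libraries (-0.40 ± 0.09; edgeR, Benjamini-Hochberg adjusted p = 0.0489). That call sat at the threshold and was lost in 5 of 6 leave-outs, with an adjusted p in edgeR up to 0.224 without FLAG replicate 1. The coactivator genes EP300 and CREBBP were at -0.01 ± 0.04 and 0.02 ± 0.05, and DUSP1 at -0.14 ± 0.04.

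**Figure D4:**
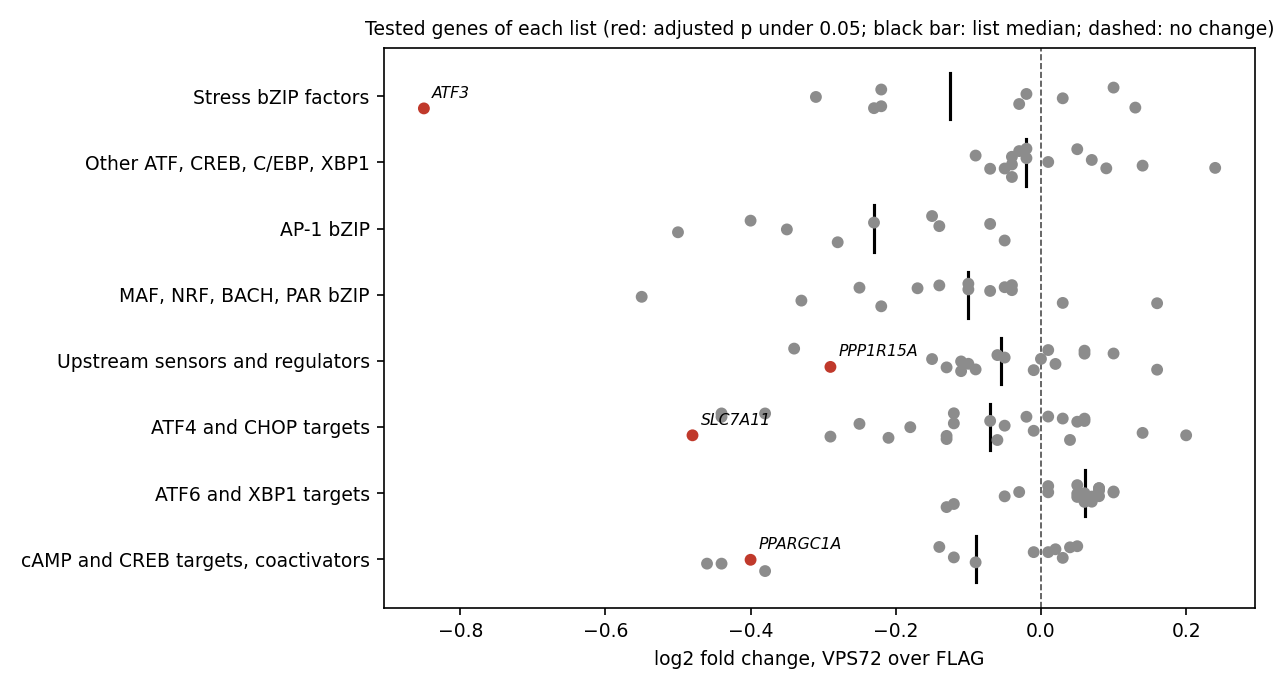
Log2 fold change, VPS72 over FLAG (x axis), of every tested gene in the 8 groups named at the left, with group medians as black bars and genes past the threshold in red. The 4 red points, all left of zero, are ATF3, PPP1R15A, SLC7A11 and PPARGC1A, and the AP-1 group has the lowest median, at -0.23.

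The genes whose pattern over the 6 libraries was most like that of ATF3 were sought among 10406 genes with a mean of at least 5 CPM. Likeness was the root mean square difference between their log2 values, each centred on its own mean. Among the 5 closest, TNFAIP3, the NF-kB inhibitor A20, differed from the ATF3 pattern by 0.152, the growth factor receptor FGFR1 by 0.153 and the growth arrest gene GADD45A by 0.157. TNFAIP3 had 28.2, 28.0 and 24.4 CPM in VPS72 libraries and 41.1, 43.2 and 44.5 CPM in FLAG libraries. WASH9P, at 0.144, belongs to a family of near-identical copies, so its counts are uncertain, and it did not pass (edgeR, Benjamini-Hochberg adjusted p = 0.0599). TNFAIP3 fell (edgeR, Benjamini-Hochberg adjusted p = 0.000542) and kept its call in every leave-out. The calls of FGFR1 (adjusted p = 0.0324 in edgeR) and GADD45A (adjusted p = 0.0112) were lost in some, with adjusted p-values up to 0.159 and 0.115 without FLAG replicate 1. No bZIP gene outside the 10 was among the 5. Genes picked for likeness to ATF3 necessarily stand lower in VPS72 libraries, so their direction carries no further information.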

How the data were processed

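The authors deposited 1 table of estimated counts per gene symbol, whole numbers and not normalized, with 1 column per library. STAR, RSEM, limma and the builds hg19 and hg38 are named in the submitters' processing notes, without roles or versions. Per the labels' protocols, RNA came from RNAzol extraction and libraries from KAPA RNA HyperPrep. Groups and replicate numbers came from the sample titles. The titles do not say that replicates were separate cultures, and the p-values then reflect only how these libraries vary, possibly for technical reasons.

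Genes were filtered with filterByExpr (minimum count 10, minimum total 15), which kept 14253 genes with 99.925% of the counts. With TMM factors, edgeR's quasi-likelihood test set VPS72 against FLAG (version 4.0.16, R 4.3.3), Benjamini-Hochberg adjusted over all tested genes at a threshold of 0.05. Intervals are at 95% and cover the spread between libraries. The common coefficient of variation was 7.24%. Libraries of a group differed by more than sampling noise (chi-square per degree of freedom 4.70 to 7.69), so none was taken as a repeat deposit. Ratios of ATF3 to another factor used log2(CPM + 0.5). The scripts were tested on simulated data. Alternatives included DESeq2 (1.42.0) and limma-voom (limma 3.58.1).

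The members and gene lists were chosen with earlier results of these data known. Named genes were the 10 factors, VPS72, the members of each list past the threshold and its 3 most abundant, and the 5 genes most like ATF3, of which 1 is not reported here by name. Exon lengths and overlaps are from GENCODE 29 (GRCh38) and promoter windows from RefSeq (GRCh38.p14). Annotation behind the counts: not given in the sources used here.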

Additional observations from a re-analysis of the deposited data

How the results depend on the processing

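The fall of ATF3 kept its direction in all alternatives, with log2 fold changes from -0.90 to -0.77 and an adjusted p under the threshold in all that gave one except the test against a 1.5-fold change (edgeR, Benjamini-Hochberg adjusted p = 1, log2 fold change -0.85). DESeq2's default filter gave ATF3, CREM, DDIT3, CEBPB and JDP2 no adjusted p, so the members and the cAMP and CREB list have no count there. It left 8566 of the 14253 tested genes without an adjusted p, JUNB and FOSL1 among them, so its other counts are over the remaining genes. Without that filter, an alternative added after seeing the data, ATF3 passed (DESeq2, Benjamini-Hochberg adjusted p = 4.3e-13). The number of factors that changed was 2 with no filter, where CEBPG joined ATF3 (-0.22), and 0 against a 1.5-fold change. Signs turned at values near zero for ATF6 without VPS72 replicate 1 (0.01), for ATF4 without FLAG replicate 1 (0.00) and for CREB3L2 with the abundance trend removed (0.00). Leaving out single libraries gave -0.08 to 0.00 for ATF4, -0.04 to 0.01 for ATF6, 0.01 to 0.19 for ATF5, -0.32 to -0.10 for CREM, 0.05 to 0.20 for JDP2 and 0.02 to 0.06 for CREB3L2.

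Among other named genes the sign turned with library size only for ATF2 (-0.02), NFE2L1 (0.00), PPP1R15B (-0.02), SLC7A5 (-0.02) and CREBBP (-0.01), and with the abundance trend removed for ATF2 (-0.01), PPP1R15B (-0.01), SLC7A5 (-0.02) and CREBBP (-0.01). Single leave-outs turned JUND (range -0.17 to 0.04), EP300 (-0.03 to 0.01), SLC7A5 (-0.04 to 0.06), ATF2 (-0.01 to 0.04), PPP1R15B (-0.01 to 0.05) and CREBBP (-0.02 to 0.07).

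All genes changed numbered 88, and 264 with no filter, 249 with DESeq2, 214 with DESeq2 without its independent filter, 1 against a 1.5-fold change, 54 with the abundance trend removed and 25 to 100 without single libraries. Library size only gave 32 higher and 54 lower, against 60 and 28, and moved the median of all genes to -0.04. The AP-1 count of 0 was 1 with library size only, with DESeq2 and with DESeq2 without its independent filter, 3 with no filter and 0 to 2 in leave-outs. The ATF4 and CHOP target count of 1 was 2 with library size only, 5 with no filter, 3 with DESeq2, 2 with DESeq2 without its independent filter, 0 against a 1.5-fold change and 1 to 3 in leave-outs. The upstream count of 1 was 0 against a 1.5-fold change and 0 to 1 in leave-outs. The cAMP and CREB count of 1 was 0 against a 1.5-fold change, with the replicate block and without the abundance trend, and 0 to 1 in leave-outs. For these counts the cause was not tested, except that fewer libraries entered each leave-out.

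With the replicate number as a block 32 genes changed, ATF3 among them (edgeR, Benjamini-Hochberg adjusted p = 0.000667), and PPARGC1A and FGFR1 were lost (0.13 and 0.0744). The titles do not say whether the numbers pair the libraries. Deviations from the group means correlated at -0.21, -0.08 and 0.16 for replicates 1, 2 and 3. With 3 libraries per group these values cannot settle whether a batch was shared. Calls of FGFR1 and PPARGC1A were also lost with the abundance trend removed. As paired differences the ratio of ATF3 to each other factor kept its value, with an exact sign-flip p of 0.25, the smallest that 3 pairs can give.

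The factors with fewest counts, DDIT3 (244 to 306 counts a library) and CREM (276 to 412), had 95% intervals of -32.1% to -4.12% and -28.9% to 2.70%. Intervals cover the spread between these libraries only.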
